A study of Mus musculus with 2 samples.

Results

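Irradiated and control mouse parotid glands were compared for 10 genes linked to the tumor suppressor p53 and to cellular senescence: Cdkn1a, Mdm2, Ccng1, Bax, Phlda3, Trp53inp1, Sesn1, Gdf15, Btg2 and Cdkn2a. The genes were taken by name, as a list of p53 targets and senescence genes drawn up when other results of these data were known, and all 10 were present among the 48825 features of the expression matrix. The data are 2 single-cell RNA-seq libraries of the mouse parotid gland (PG), a salivary gland made mostly of serous acini and ducts. The irradiated (IR) library came from wild-type female C3H mice that received 6 Gy per day to the head and neck on 5 days, 30 Gy in total, at an age of 6 to 10 weeks, and the glands were collected 10 months later. The control library came from C3H females of the same genotype that were not irradiated. Each library pooled the glands of 2 mice, so each group is 1 sample. No test between the groups was possible, and every interval given here is a 95% interval for counting error alone, which leaves out the spread between mice.

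p53 is a transcription factor that is stabilized when DNA is damaged, and it then binds response elements near its target genes. Its products stop the cell cycle (Cdkn1a, Btg2, Ccng1), promote cell death (Bax, Phlda3, Trp53inp1), limit oxidative and metabolic stress (Sesn1) and feed back on p53 itself (Mdm2, Ccng1). Gdf15 is a secreted member of the TGF-beta superfamily that many stresses induce, and Cdkn2a encodes p16Ink4a and p19Arf, whose accumulation is a classic mark of senescent cells. In the salivary gland, p53-dependent death of acinar cells is known as part of the early response to radiation.

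The p53 response element itself is shown for the pair of genes whose promoter window held it with the fewest mismatches, Cdkn1a and Ccng1, both of which were higher in IR in the secretory-rich and intercalated duct classes described below. In the RefSeq promoter table (GRCm38.p6; 250 bases before to 50 after each start), 9 of the 10 genes had a window, and Trp53inp1 is only named. The element was searched on both strands as 2 adjacent half-sites of 10 bases, and the capitals mark the match. The Cdkn1a stretch lies at chr17:29090898-29090977 on the plus strand, with its match 51 bases before the upstream start. The window of the other Cdkn1a start held no match. The Ccng1 stretch lies at chr11:40755432-40755511 on the minus strand, with its match 195 bases before the start.
Cdkn1a: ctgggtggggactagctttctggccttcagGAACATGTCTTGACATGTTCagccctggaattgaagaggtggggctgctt
Ccng1: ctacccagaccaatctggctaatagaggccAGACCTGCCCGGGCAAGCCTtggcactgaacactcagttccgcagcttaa
Both matches differed from the element at 1 position. Of 32851 windows of all genes, 22 (0.07%) held a stretch with at most 1 mismatch. Sesn1 held a match with 3 mismatches 173 bases before its second start, and 453 windows (1.38%) held one with at most 3. A match in this window is a description of the letters, and the other windows, which held none, say nothing about binding elsewhere.

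The control library held 5550 barcodes and 22707876 unique molecular identifiers (UMIs), and the IR library 7793 barcodes and 23890757 UMIs. After removal of barcodes with fewer than 200 genes or with over 5% mitochondrial UMIs, 3378 control and 5286 IR cells remained, with a median of 2907.5 and 2461.5 UMIs. The libraries shared 12 barcodes, 3 of them among the kept cells. Clustering gave 21 clusters, which were joined into 16 cell classes (5 epithelial, 11 other), and a Jchain+ cluster of low depth was left out. The epithelial classes were acinar cells (389 control and 389 IR cells), intercalated duct (ID) cells (126 and 150), striated duct cells (90 and 78) and 2 classes with Etv1+ secretory markers, of which one was rich in secretory transcripts (179 and 149 cells) and the other poor (63 and 86). The secretory-rich class carried 7 of 8 Etv1+ secretory and all 10 acinar markers, and the marker list by itself named it acinar. The class called acinar carried 7 of 10 acinar markers. The ID class also carried 6 of 7 myoepithelial markers, and the stromal class all 7. The Lef1+ T-cell class joined 2 clusters with 565 and 148 control and 1013 and 846 IR cells, the second with Cd8a and Cd8b1 among its leading genes. The B-cell class joined 2 clusters with 616 and 221 control and 476 and 356 IR cells. Macrophages joined clusters with 106 and 51 control and 84 and 59 IR cells, the second with 4 of 4 neutrophil markers. Dendritic cells joined clusters with 26 and 18 control and 48 and 40 IR cells. The part of this mix in the ratios of these joined classes was not tested. Gene positions given below are those of GENCODE M21 on GRCm38, where all 10 genes are protein-coding. A member was compared in a class where it had at least 20 UMIs over both libraries, and it was called higher or lower at 1.5-fold.

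In IR Etv1+ secretory-rich cells 7 members were higher than in control, in IR ID cells 4 and in IR acinar cells 2. Over the epithelial classes, 23 member and class pairs had enough UMIs, of which 13 were higher in IR and 3 lower, where 20.2% of all gene and class pairs were higher and 10.3% lower. Over the other classes, 65 pairs had enough UMIs, of which 10 were higher and 8 lower, beside 19% and 8.91% of all pairs. In the secretory-rich class 7 of 8 members compared were higher (19% of all 7803 genes) and 0 were lower (6.11%), with a median ratio of 2.37, where the median over all genes was 1.15. In the ID class 4 of 8 were higher (15.9% of 4778 genes) and 2 were lower (12.6%), with a median of 1.53 beside 1.06, and in acinar cells 2 of 5 were higher (29.3% of 4399 genes) and 0 lower (3.91%), with a median of 1.41 beside 1.26. Bax, Ccng1, Cdkn1a and Phlda3 were higher in both the secretory-rich and the ID class, 4 of 8 members compared, and 4.59% of 4643 genes did the same. When the abundant genes (secretory, mitochondrial and hemoglobin genes and Gm42418) were left out of the totals, the same 4 members passed in both classes. Of all genes, 111 (2.39%) did so. In striated duct and secretory-poor cells only Btg2 had enough UMIs to compare.

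**Figure D1:**
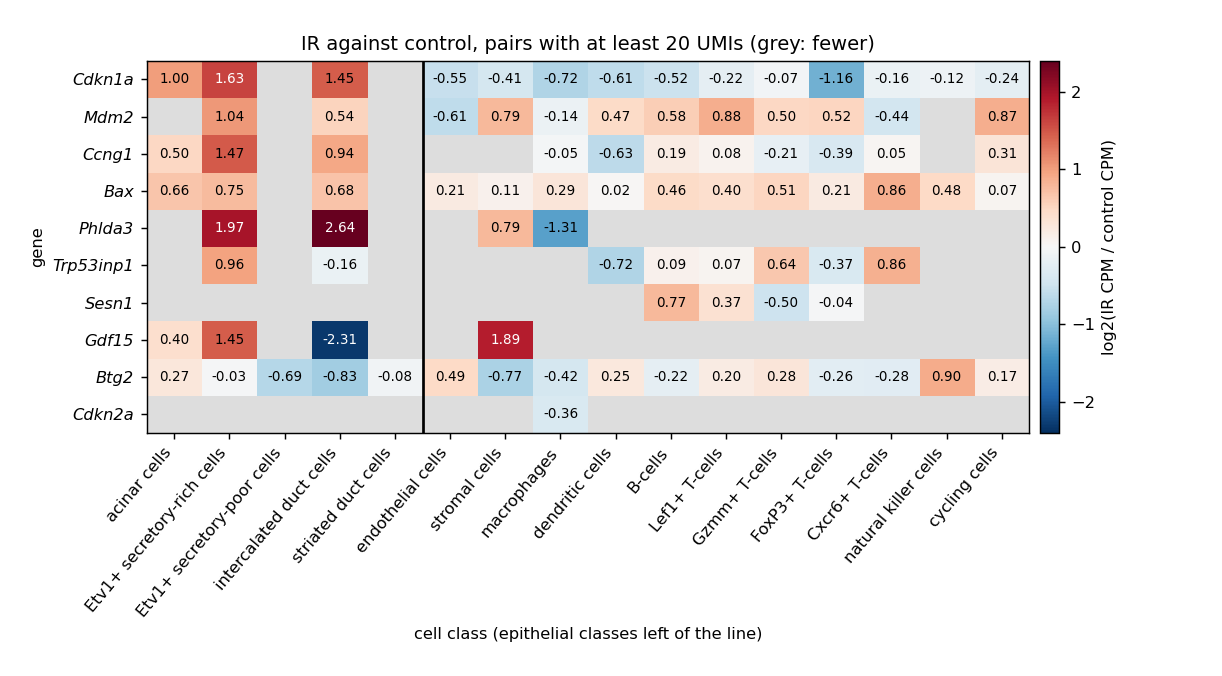
Ratio of IR over control (log2 color scale) for each of the 10 genes (rows) in each of the 16 cell classes (columns), with squares under 20 UMIs over both libraries left without a color. Cdkn1a is above 1 in the 3 epithelial classes with enough UMIs and below 1 in all 11 other classes. Under alternatives of the processing Cdkn1a falls to 0.776 in ID cells and rises to 1.18 in macrophages and 1.52 in cycling cells. It also passes just above 1 in Gzmm+ T-, Cxcr6+ T- and natural killer cells. Bax is above 1 in all 14 classes compared, of which 2 fall below 1 under TMM scaling.

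Cdkn1a (chr17:29090976-29100727, plus strand) encodes p21, the inhibitor of cyclin-dependent kinases through which p53 halts the cell cycle. It had 40 UMIs in control secretory-rich cells, or 6.11 counts per 1000000 UMIs of the class (CPM), and 72 UMIs in IR secretory-rich cells, or 18.9 CPM, a ratio of 3.09 (2.07 to 4.67). In ID cells it had 18 and 55 UMIs, 14.1 and 38.5 CPM, a ratio of 2.73 (1.58 to 4.94). Acinar cells held 7 and 13 UMIs, and their ratio of 2.01 had an interval that included 1 (0.744 to 5.94). At a mitochondrial limit of 10%, 5 control and 5 IR cells of the stromal class joined the ID class, bringing 49 and 14 Cdkn1a UMIs, and the ID ratio was then 0.776.

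Outside the epithelium the direction was the opposite. Endothelial cells, which line vessels, held the highest Cdkn1a level of any class in both libraries, and this level lay apart from that of the next class (521 control UMIs at 1626 CPM and 194 IR UMIs at 1110 CPM, ratio 0.683, 0.576 to 0.807). The ratio was 0.606 (0.481 to 0.759) in macrophages, 0.657 (0.533 to 0.811) in dendritic cells, 0.698 (0.556 to 0.874) in B-cells and 0.449 (0.303 to 0.666) in FoxP3+ T-cells, the regulatory subset; with each cell weighted equally macrophages were at 1.18. In stromal, Lef1+, Gzmm+ and Cxcr6+ T-, natural killer and cycling cells it lay between 0.750 and 0.956 with intervals that included 1. Under alternatives of the processing it reached 1.52 in cycling, 1.01 in Cxcr6+ T-, 1.004 in natural killer and 1.002 in Gzmm+ T-cells. Of the 3 members measured in all 14 of these classes, Cdkn1a alone was above 1 in the 3 epithelial classes and below 1 in the 11 others. Of 1301 genes, 6 (0.461%) had the same pattern. The pattern was described after the ratios of Cdkn1a were seen, so this share is a description only.

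**Figure D2:**
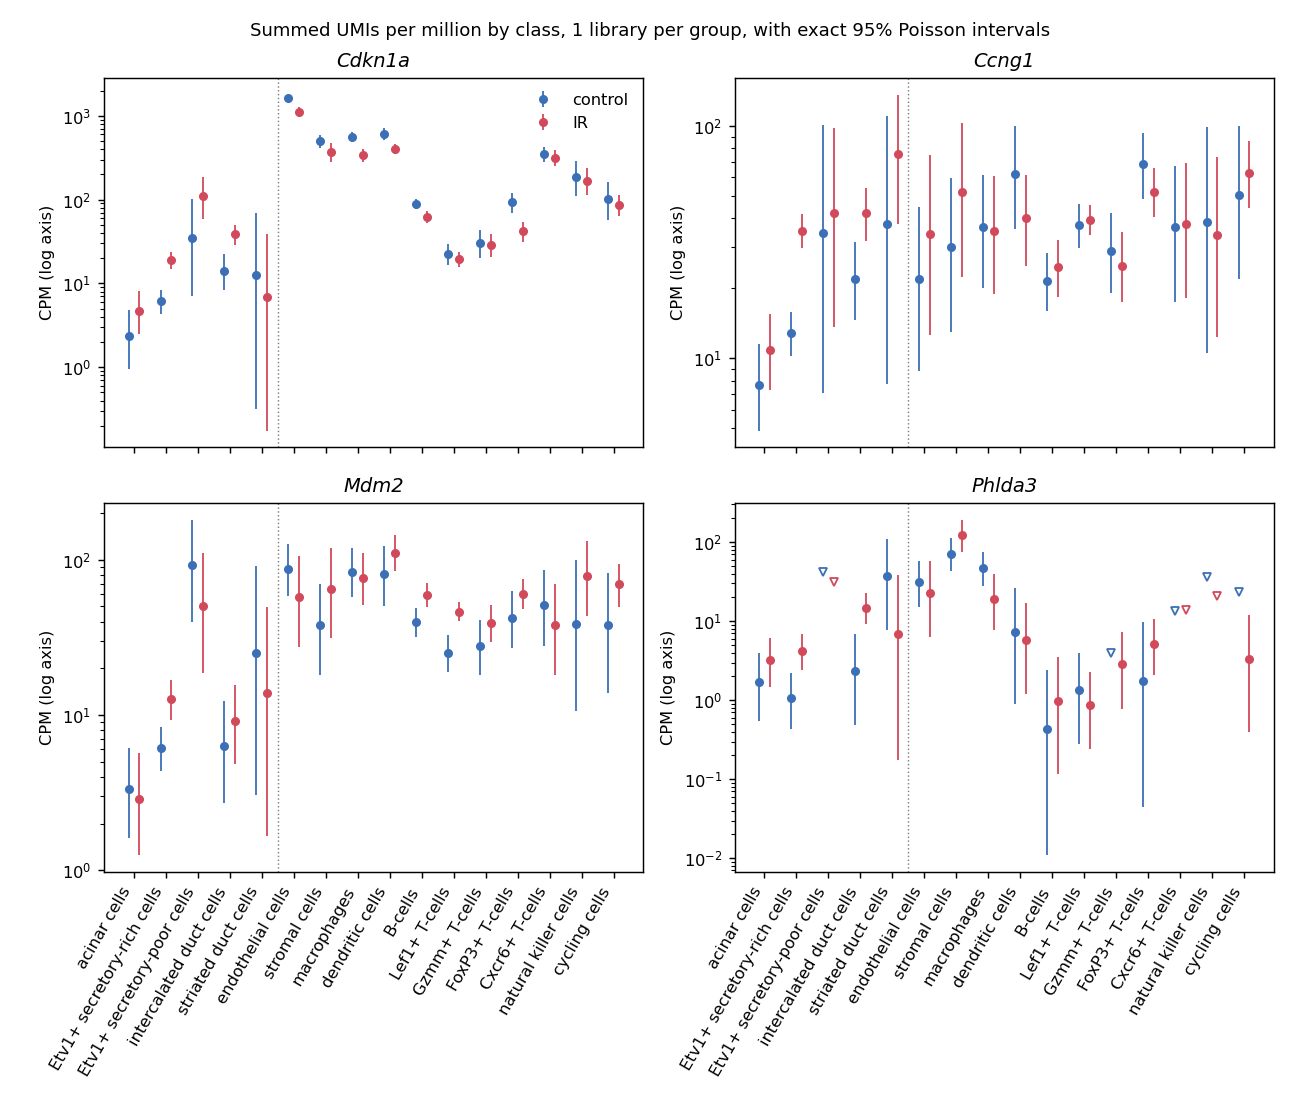
Levels of Cdkn1a, Ccng1, Mdm2 and Phlda3 in each cell class (CPM over all genes, log axis), in the control and IR libraries, with 95% Poisson intervals for counting error. An open triangle is the upper limit where no UMI was seen. Endothelial cells hold the highest Cdkn1a level, 1626 in control and 1110 in IR, and acinar cells the lowest, 2.35 and 4.71.

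The Cdkn1a UMIs of IR secretory-rich cells were unevenly spread. In control cells of this class 28 of 179 had a UMI and the highest cell had 5, while in IR cells 26 of 149 had one and 2 cells held 21 and 19 UMIs, together 55.6% of the total. The first of these cells, with 27457 UMIs, also held 16 UMIs of Mdm2, 12 of Trp53inp1, 6 of Ccng1, 6 of Phlda3 and 2 of Bax. It had the most UMIs of the 9 members other than Btg2 of any cell in the class, 63, and no UMI of the 6 endothelial markers. The second cell, with 71152 UMIs, held 34 UMIs of the endothelial markers, with 5 of the 6 present, of 45 in the whole IR class.

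Endothelial markers were thus higher in IR than in control epithelial cells of these classes: 2.60 and 11.8 CPM in secretory-rich cells and 5.50 and 58.9 CPM in ID cells, where 4 IR cells held 72 of the 84 UMIs. In acinar cells they stood at 2.68 and 2.17 CPM, and in IR endothelial cells at 11562 CPM. Without the 6 epithelial cells of these classes that had 3 or more such UMIs, Cdkn1a held 40 and 53 UMIs in secretory-rich cells, a ratio of 2.31 (1.502 to 3.57), and 18 and 35 in ID cells, a ratio of 2.13 (1.17 to 3.996). Without the 3 highest Cdkn1a cells of each library, the ratio in secretory-rich cells was 1.79. T-cell markers also differed between the libraries in all 3 epithelial classes, with 61.0 and 124 CPM in acinar, 6.57 and 18.1 in secretory-rich and 16.5 and 47.7 in ID cells, and B-cell markers stood at 30.2 and 82.9 CPM in acinar, 13.6 and 36.7 in secretory-rich and 60.5 and 25.2 in ID cells. Macrophage markers were at 16.8 and 26.8 CPM in acinar, 35.1 and 18.4 in secretory-rich and 162 and 261 in ID cells. IR macrophages held Cdkn1a at 338 CPM, and IR T-cell classes ranged from 19.3 CPM in Lef1+ to 314 in Cxcr6+ T-cells. The part of these T-cell, B-cell and macrophage markers in the result was not tested.

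**Figure D3:**
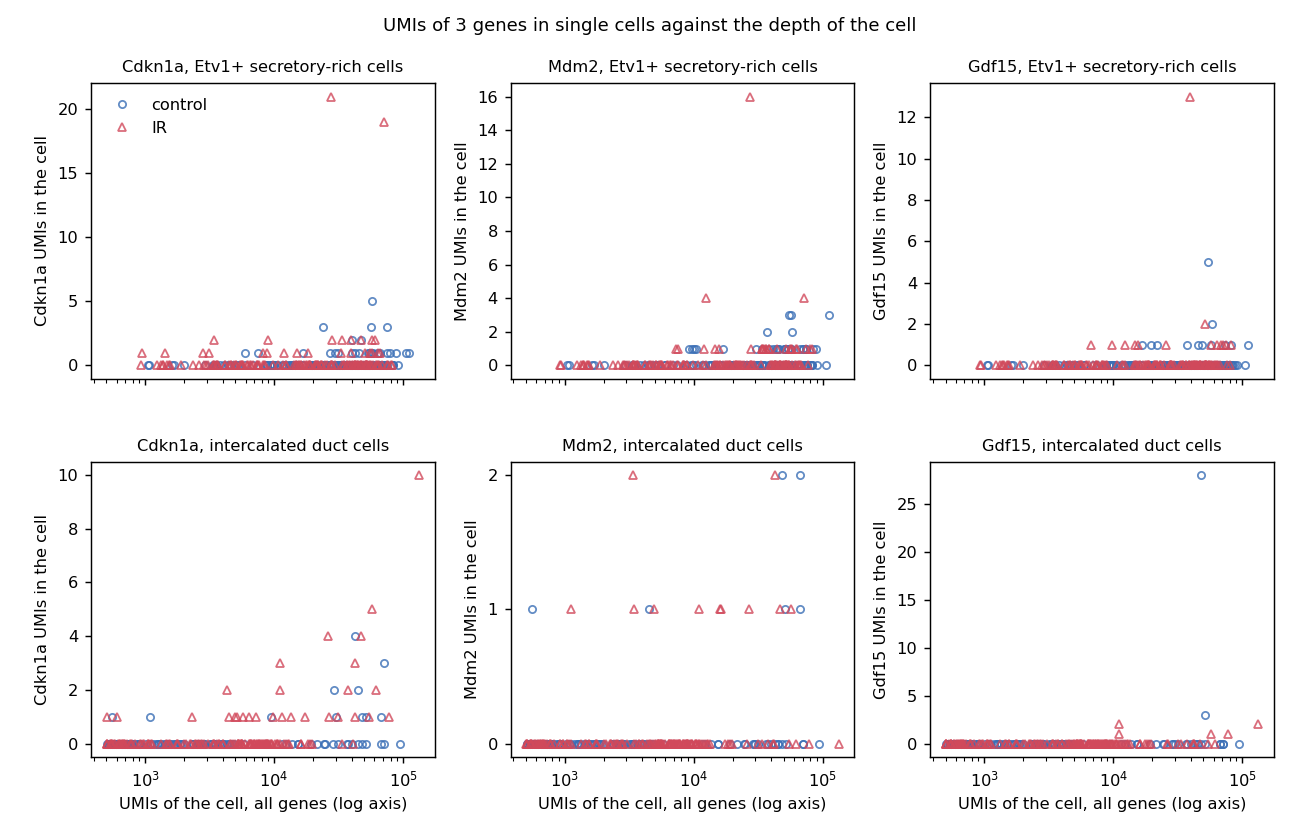
UMIs of Cdkn1a, Mdm2 and Gdf15 in single cells (vertical) against the total UMIs of the cell (horizontal, log axis) in Etv1+ secretory-rich and ID cells, control and IR. The 2 highest IR secretory-rich cells stand apart with 21 and 19 Cdkn1a UMIs, and 1 control ID cell stands apart with 28 Gdf15 UMIs.

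Mdm2 (chr10:117688875-117710758, minus strand) encodes the ubiquitin ligase that degrades p53 and is itself a p53 target. It had 40 and 48 UMIs in control and IR secretory-rich cells, 6.11 and 12.6 CPM, a ratio of 2.06 (1.33 to 3.22). The single IR cell with 16 UMIs contributed to it, and without the 3 highest cells of each library the ratio was 1.32. Among lymphocytes, Mdm2 passed 1.5-fold in Lef1+ T-cells, in which Lef1 marks a naive state, and no single cell there held over 2 UMIs: 56 and 211 UMIs gave 25.2 and 46.4 CPM, a ratio of 1.84 (1.36 to 2.52). The mix of the clusters joined in this class differed between the libraries, and its part in the ratio was not tested. In B-cells 92 and 123 UMIs gave a ratio of 1.498 (1.13 to 1.98), just under the 1.5-fold limit. Ratios of 1.42 in Gzmm+, 1.43 in FoxP3+ and 0.739 in Cxcr6+ T-cells (14 and 10 UMIs) had intervals that included 1, as did the 0.655 of endothelial cells (28 and 10 UMIs). Mdm2 also passed 1.5-fold in cycling cells (6 and 42 UMIs, ratio 1.82), whose cluster carried 5 of 5 FoxP3+ T-cell markers. Stromal cells (10 UMIs in each library) stood at 1.72, and both of these intervals included 1.

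Ccng1 (chr11:40748552-40755311, minus strand) encodes cyclin G1, which recruits a phosphatase to Mdm2. It had 84 and 135 UMIs in secretory-rich cells, 12.8 and 35.4 CPM, a ratio of 2.76 (2.09 to 3.67). These UMIs were spread over many cells: 65 of 179 control and 69 of 149 IR cells had one, and the highest cells had 3 and 6. In ID cells 28 and 60 UMIs gave 21.98 and 42.05 CPM, a ratio of 1.91 (1.20 to 3.11). Acinar cells held 23 and 30 UMIs with a ratio of 1.41 (0.792 to 2.54). In the other classes Ccng1 ranged from 0.648 in dendritic cells to 1.24 in cycling cells, and each of these 8 intervals included 1. The highest IR secretory-rich cell held 4.44% of the Ccng1 UMIs of its class, where the highest Cdkn1a cell held 29.2% of those of Cdkn1a.

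Bax (chr7:45461697-45466898, minus strand) encodes the pore-forming protein that opens the outer mitochondrial membrane during apoptosis. It was above 1 in all 14 classes compared, from 1.01 in dendritic cells to 1.82 in Cxcr6+ T-cells. Of 1301 genes, 57 (4.38%) were above 1 in all 14, a pattern described after the ratios of Bax were seen. Under TMM scaling Bax was 0.920 in dendritic and 0.985 in stromal cells. Without the 3 highest cells of each library it was 0.884 in endothelial cells, and with each cell weighted equally 0.936 in dendritic cells. Secretory-rich cells held 97 and 95 UMIs, 14.8 and 24.9 CPM, a ratio of 1.68 (1.25 to 2.26), and acinar cells 43 and 63 UMIs, a ratio of 1.58 (1.06 to 2.39). In ID cells 20 and 36 UMIs gave 1.61 (0.906 to 2.93). With the abundant secretory genes left out of the totals the acinar ratio was 1.39, under TMM scaling the secretory-rich ratio was 1.42 and with at least 500 genes per cell the ID ratio was 1.33, each under the 1.5-fold limit. The largest counts were in B-cells, with 274 and 337 UMIs (ratio 1.38, 1.17 to 1.62), and in Lef1+ T-cells, with 197 and 533 (ratio 1.32, 1.12 to 1.56). The Bax differences were small, and in 12 of the 14 classes its ratio was above the median of all genes of the class. Bax overlaps Gm45808 on the same strand, so reads of the overlap cannot be told apart.

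Phlda3 (chr1:135766119-135769136, plus strand) encodes a PH-domain protein that restrains Akt signaling. It was rare, with 73 control and 99 IR UMIs in all. Secretory-rich cells held 7 and 16 UMIs (ratio 3.93, 1.53 to 11.3) and ID cells 3 and 21 UMIs (ratio 6.25, 1.87 to 32.7). The first of the Cdkn1a-high cells supplied 6 of the 16. The highest level was in stromal cells, with 19 UMIs in each library, 71.7 and 124 CPM and a ratio of 1.72 (0.864 to 3.44). In macrophages the order was the reverse, 18 and 7 UMIs (ratio 0.405, 0.143 to 1.02), but 13 of the 18 control UMIs came from 1 cell.

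Trp53inp1 (chr4:11156431-11174379, plus strand) encodes a nuclear protein that promotes p53-dependent apoptosis and autophagy. In secretory-rich cells it had 60 and 68 UMIs, 9.16 and 17.8 CPM, a ratio of 1.95 (1.36 to 2.80). The 2 highest IR cells held 12 and 10 of these UMIs, and without the 3 highest cells of each library the ratio was 1.46, under the 1.5-fold limit. In ID cells 16 UMIs in each library gave 0.893 (0.418 to 1.91), so here the 2 epithelial classes did not move together. The largest counts were in FoxP3+ T-cells, with 73 and 133 UMIs at 128 and 99.1 CPM, a ratio of 0.774 (0.578 to 1.04). The ratios of 1.56 in Gzmm+ and 1.81 in Cxcr6+ T-cells and of 0.605 in dendritic cells rested on 40 UMIs or fewer over both libraries, with intervals that included 1.

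Sesn1 (chr10:41809935-41908424, plus strand) encodes sestrin 1, which dampens oxidative stress and mTORC1 signaling. It had 179 control and 338 IR UMIs, of which all epithelial cells together held 21 and 25, and only B-cells and 3 T-cell classes had enough to compare. Its level was not particular to lymphocytes, with 20.98 CPM in control macrophages (8 UMIs) beside 19.8 in control B-cells. In B-cells 46 and 70 UMIs gave 19.8 and 33.8 CPM, a ratio of 1.71 (1.16 to 2.53), and in Lef1+ T-cells 52 and 138 UMIs a ratio of 1.30 (0.935 to 1.82). In Gzmm+ and FoxP3+ T-cells the ratios were 0.708 and 0.975. Sesn1 overlaps the transcript 9930024M15Rik on the same strand.

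Gdf15 (chr8:70629393-70632456, minus strand) was nearly absent from lymphocytes and had 91 and 73 UMIs in all. Secretory-rich cells held 17 and 27 UMIs (ratio 2.73, 1.43 to 5.34), of which 13 of the 27 lay in 1 IR cell, and the ratio was 1.11 when the gene lists were left out of the genes used for clustering and 2.01 without the highest cell of each library. ID cells held 31 and 7 UMIs (ratio 0.202, 0.0749 to 0.467), but 28 of the 31 lay in 1 control cell of 48195 UMIs, and without the highest cell of each library the ratio was 1.58. In stromal cells, which here include cells with myoepithelial markers, 7 and 15 UMIs in 4 and 8 cells gave a ratio of 3.69 (1.42 to 10.7). Gdf15 therefore had no value in the ID class that did not depend on a single cell.

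Btg2 (chr1:134075170-134079120, minus strand) encodes an antiproliferative protein that is induced by p53 and also, as an immediate early gene, by growth factors and tissue handling. It was the most abundant member, with 8561 and 8148 UMIs, and the one least like the others. Its ratio in secretory-rich cells was 0.979 (0.922 to 1.04; 3003 and 1711 UMIs). It was lower in IR ID cells (1168 and 738 UMIs, ratio 0.564, 0.514 to 0.619), in secretory-poor cells (181 and 153 UMIs, 0.619, 0.496 to 0.773) and in stromal cells (299 and 102 UMIs, 0.588, 0.465 to 0.739), and higher in natural killer cells (35 and 112 UMIs, 1.86, 1.26 to 2.81). The control ID cell with 28 Gdf15 UMIs held 429 of the 1168 Btg2 UMIs of its class, and without the highest cell of each library the ID ratio was 0.752, short of the 1.5-fold limit. Without the 3 highest cells the stromal ratio was 0.886, and the natural killer ratio was 1.35 at a mitochondrial limit of 10%. With each cell weighted equally the secretory-poor ratio was 0.706.

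Cdkn2a (chr4:89274471-89294653, minus strand) was close to absent, with 19 control and 36 IR UMIs over the 2 libraries and 1 UMI in all epithelial cells of each. Its 2 products share the end of the transcript that is read, so p16Ink4a and p19Arf cannot be told apart. Macrophages held 12 and 9 UMIs, a ratio of 0.780 (0.290 to 2.02). In cycling cells 0 of 30 control cells had a UMI, a count of 0 that leaves room for up to 10% of cells with a UMI at their median of 857 UMIs and sets no limit on cells that express the gene. Of the IR cycling cells 7 of 105 held 14 UMIs, and the lower bound of the ratio was 0.865, so the libraries are not told apart. No difference in Cdkn2a was detectable at this depth in any epithelial class.

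Depth differed between the libraries within classes, with a median of 37254 control and 18620 IR UMIs per secretory-rich cell and 1813.5 and 5268.5 per ID cell. Each cell was therefore thinned to 1000 UMIs in 1 random draw. This left out 0 control and 2 IR secretory-rich cells and 45 and 31 ID cells that were shallower. The intervals of the thinned shares leave out the spread between draws, which was not measured. The share of cells with a UMI of any of the 9 members other than Btg2 was then compared. In secretory-rich cells this share was 2.79% in control (5 of 179 cells, 0.913% to 6.398%) and 14.97% in IR (22 of 147, 9.62% to 21.8%). In ID cells it was 8.64% (7 of 81, 3.55% to 16.999%) and 15.97% (19 of 119, 9.90% to 23.8%), with intervals that overlap, and in acinar cells 3.77% and 5.75%. For Cdkn1a, Ccng1, Mdm2 and Phlda3 alone, chosen with their ratios known and so given as a description, the share in secretory-rich cells was 1.12% in control (2 of 179 cells, 0.136% to 3.98%) and 8.84% in IR (13 of 147, 4.79% to 14.6%). In ID cells it was 3.70% (3 of 81, 0.770% to 10.4%) and 13.4% (16 of 119, 7.88% to 20.9%). Acinar cells stood at 2.16% and 2.19%, and endothelial cells at 70.9% and 58.5%. Before thinning, 53.6% and 59.7% of secretory-rich and 22.2% and 38.7% of ID cells had such a UMI. No cell type is known to lack these genes. Of Cdkn1a alone, 0 of 371 control and 3 of 365 IR acinar cells had a UMI after thinning, beside 1 of 179 and 5 of 147 secretory-rich cells (3.40%, 1.11% to 7.76%), 1 of 81 and 3 of 119 ID cells, and 1.99% and 1.87% of Lef1+ T-cells. In the 3 epithelial classes these shares rest on 5 cells or fewer per library. Free RNA was not measured, and its part in these shares was not tested.

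**Figure D4:**
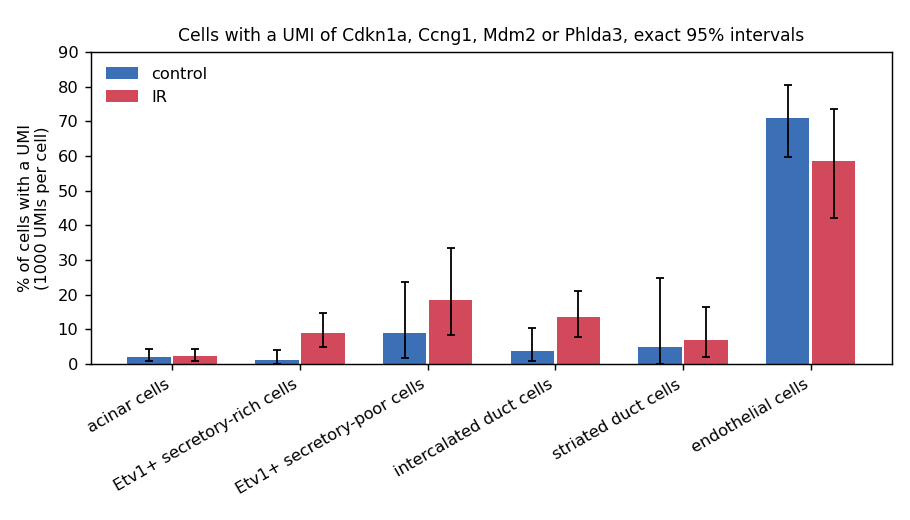
Share of cells (percent) with at least 1 UMI of Cdkn1a, Ccng1, Mdm2 or Phlda3, by class and library, with Clopper-Pearson 95% intervals. Each cell was thinned to 1000 UMIs in 1 random draw, and the intervals leave out the spread between draws. The share is 1.12% in control and 8.84% in IR secretory-rich cells and 3.70% and 13.4% in ID cells, while acinar cells stand at 2.16% and 2.19%.

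The median of the other p53 targets lay closer to that of all genes than the members' median did in secretory-rich cells. Of 40 other p53 targets, 20 had enough UMIs in secretory-rich cells, of which 7 were higher and 0 lower (all genes 19% and 6.11%), with a median ratio of 1.24 (all genes 1.15). Ephx1, an epoxide hydrolase, was highest (45 and 78 UMIs, ratio 2.98, 2.04 to 4.40), followed by Sesn2 at 2.43 and Ddit4 at 2.36, and Cd82, Fdxr and Ercc5 were lowest at 1.03, 0.925 and 0.687. In acinar cells 6 of 10 were higher (median 1.58, all genes 1.26), led by the BH3-only gene Bbc3 (5 and 15 UMIs, ratio 3.24, 1.12 to 11.4). In ID cells 1 of 11 was higher, Triap1 at 1.53, and 1 was lower, Cd82 at 0.648, with a median of 0.918 below the 1.06 of all genes. In endothelial cells 0 of 9 were higher and 2 lower (all genes 15.8% and 13.1%), in B-cells 9 of 26 were higher and 1 lower (14.4% and 5.32%), and in Lef1+ T-cells 8 of 29 were higher and 0 lower (19.8% and 3.73%).

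Among p53 and its regulators, 3 of 13 were higher in secretory-rich cells (all genes 19%, a similar share), where the p53 inhibitor Mdm4 had 29 and 36 UMIs (ratio 2.13, 1.27 to 3.61). Trp53 itself was at 1.84 in acinar (10 and 17 UMIs, 0.794 to 4.49), 0.812 in ID (11 and 10, 0.309 to 2.10) and 1.31 in B-cells (187 and 219, 1.07 to 1.60). Of the BCL-2 family, to which Bax belongs, 4 of 5 other genes were higher in secretory-rich cells, namely Bik, Bad, Bcl2l11 and Mcl1 (19% of all genes), with Mcl1, which protects from apoptosis, at 386 and 449 UMIs (ratio 1.999, 1.74 to 2.30). In ID cells 3 of 3 were higher (15.9% of all genes) and in acinar cells 2 of 3 (29.3%). Of the cell cycle inhibitors and the RB pathway, 3 of 8 genes were higher in secretory-rich (19% of all genes), 1 of 5 in ID (15.9%) and 5 of 6 in acinar cells (29.3%), and none was lower. Those higher were Ccnd2, Hmgb2, Ccnd1, Cdk4 and Hmgb1 in acinar cells and Ccnd1 in ID cells, none of them an inhibitor. In secretory-rich cells they were Ccnd1, Hmgb2 and the inhibitor Cdkn2c (11 and 12 UMIs, ratio 1.87, 0.757 to 4.69). Cyclin D1, Ccnd1, the partner of the kinases that p21 inhibits, was at 2.35 in secretory-rich cells (85 and 116 UMIs, 1.76 to 3.14) and 1.76 in ID cells (36 and 71, 1.16 to 2.71). Of 16 proliferation genes, 5 had enough UMIs in secretory-rich cells, of which 1 was higher and 1 lower (all genes 19% and 6.11%). Their median ratio was 0.736, where that of all genes was 1.15.

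Of 36 secreted factors and markers of senescence, 12 had enough UMIs in ID cells, 4 higher and 6 lower (all genes 15.9% and 12.6%), with a median of 0.654. Igfbp7 was highest (4 and 27 UMIs, ratio 6.03, 2.10 to 23.7) and Tnf lowest (42 and 3 UMIs, 0.0638, 0.0126 to 0.200). The part of single cells in these counts was not tested. Igfbp7 was also among the leading genes of the endothelial cluster, and endothelial markers stood at 5.50 CPM in control and 58.9 CPM in IR ID cells. The part of endothelial RNA in the Igfbp7 counts was not tested. In secretory-rich cells 1 of 7 was higher, Ccl5 at 1.72 (0.991 to 2.98), and 1 lower, Tgfb1 at 0.573 (0.206 to 1.40). Of all genes 19% were higher and 6.11% lower, and the list's counts are too small to set apart from these shares. In endothelial cells 5 of 14 were higher and 2 lower (all genes 15.8% and 13.1%), and Ccl5 had 3 and 189 UMIs. Ccl5 was also among the leading genes of the Gzmm+ T-cell cluster. The part of single cells and of T-cell RNA in the Ccl5 counts was not tested.

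**Figure D5:**
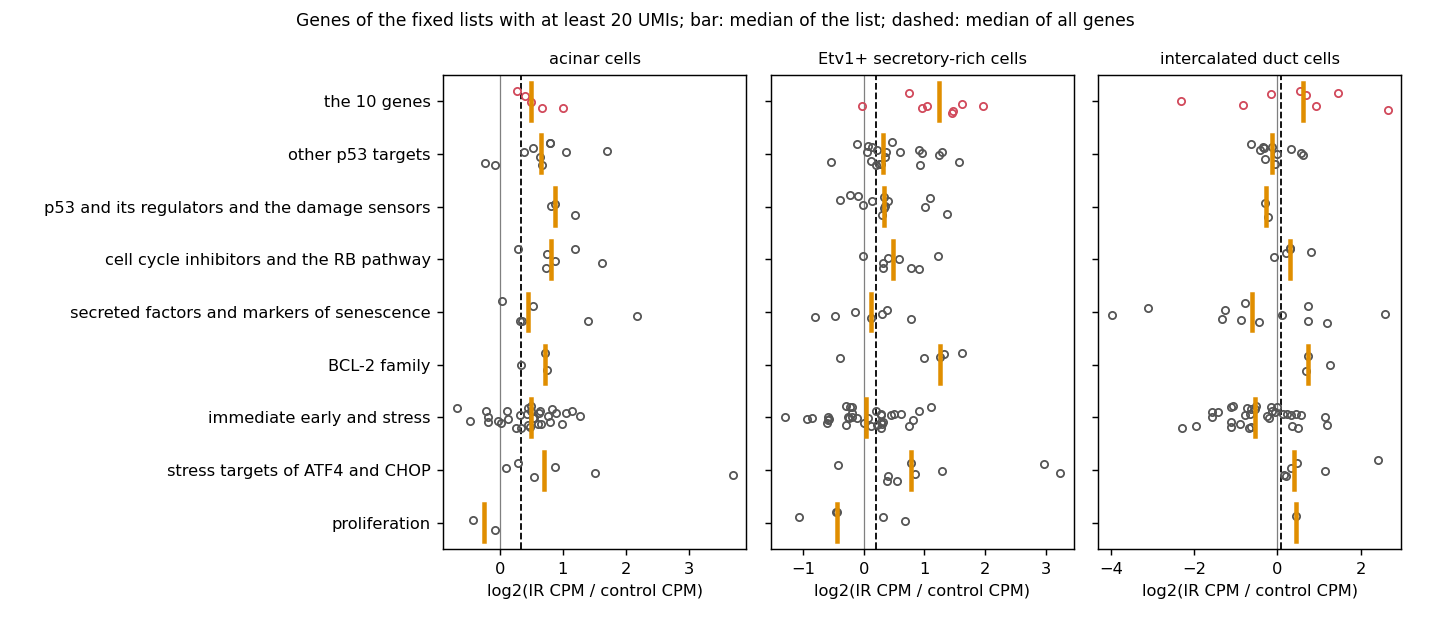
Ratio of IR over control (log2 axis) for the genes of each list with at least 20 UMIs, as points, with the list's median, in acinar, Etv1+ secretory-rich and ID cells. The members' median of 2.37 in secretory-rich cells lies above that of the other p53 targets, 1.24, and of all genes, 1.15.

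Across the 11 classes with at least 50 cells in each library, taken as 22 points, the genes whose level followed a member most closely were named from 8381 genes by Pearson correlation of log2 CPM, as a description over points that share 2 libraries. Endothelial, stromal, dendritic, natural killer and cycling cells had too few cells, so the class with the highest Cdkn1a level was not among the points. Cdkn1a was closest to Tiparp (0.88), Mapkapk2 (0.88) and Sqstm1 (0.85). Mdm2 was closest to Srsf2 (0.88), Ccng1 to Aplp2 (0.76) and Bax to Actr3 (0.92). Trp53inp1 was closest to Slc5a3 (0.87) and Sesn1 to Taf5l (0.92).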

How the data were processed

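The deposited matrices hold raw UMI counts per gene and barcode, which the authors made with Cell Ranger against mm10 (the submitters' processing notes list Cell Ranger 3.0.1 and Seurat 3). Cells with at least 200 genes and at most 5% mitochondrial UMIs were integrated and clustered at resolution 0.8 with Seurat 5.3.0 in R 4.3.3. Clusters were named from a marker list. The resolution, the joining of clusters and the exceptions to naming were chosen after the clusters were seen. The marker list by itself named the secretory-rich cluster acinar, the cycling cluster FoxP3+ T-cell, the stromal cluster myoepithelial and the Jchain+ cluster plasma cell. The stromal class was named by its leading genes. No doublets were removed in the values reported; an alternative dropped the highest 6% of scores from Scrublet in scanpy 1.11.5. Counts were summed per class and library with python 3.11.15, numpy 2.4.6 and scipy 1.17.1. CPM were computed over all genes, and also without 66 abundant genes (secretory, mitochondrial and hemoglobin genes and Gm42418). The reason was that the median log2 ratio of all genes was 0.33 in acinar, 0.20 in Etv1+ secretory-rich and -0.79 in striated duct cells. Intervals are exact conditional binomial for ratios, exact Poisson for levels and Clopper-Pearson for shares. TMM factors from edgeR 4.0.16 served as an alternative only; figures used matplotlib 3.10.9. The members and gene lists were chosen with earlier results of these data known. Of each list, the 3 highest and 3 lowest ratios per class may be named, and for likeness the 3 highest correlations; the likeness of Btg2 is not reported here. On simulated counts, 96.0% of 7527 genes in Etv1+ secretory-rich cells had a simulated ratio inside their interval, and 13.0% of unchanged genes passed 1.5-fold by counting error; in ID cells 96.7% of 4409 and 15.2%. The alternatives without the highest cells, and without epithelial cells with endothelial markers, were chosen after seeing the data. No cell was assigned to a single mouse.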

Additional observations from a re-analysis of the deposited data

Results flagged for a closer look

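Barcodes over the mitochondrial limit, 1260 in control and 1858 in IR, were left out of the comparisons above, and their cell types were not assigned. In these barcodes Cdkn1a had 126 control and 275 IR UMIs, a ratio of 1.62 (1.31 to 2.02), and Mdm2 47 and 108, a ratio of 1.71 (1.20 to 2.46). Ccng1 had 33 and 92 UMIs, a ratio of 2.07 (1.38 to 3.19), Bax 100 and 227, a ratio of 1.69 (1.33 to 2.16), and Phlda3 11 and 42, a ratio of 2.84 (1.44 to 6.12). The median over all 10415 genes with at least 20 UMIs there was 1.19, and 24.6% of them were at least 1.5-fold higher. The abundant genes, mitochondrial as well as secretory, took 41.7% of the control and 31.3% of the IR UMIs of these barcodes. Without them the ratios were 1.38 for Cdkn1a, 1.45 for Mdm2, 1.76 for Ccng1, 1.43 for Bax and 2.41 for Phlda3. Gdf15 and Btg2 were below 1, at 0.354 and 0.724 over all genes and at 0.301 and 0.614 without the abundant genes.

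Cdkn1a drew attention because its direction split by cell class. Among the 3 epithelial classes with enough UMIs its lowest ratio was 2.01, in acinar cells, with an interval that included 1. Its highest reported ratio in any other class was 0.956, in Gzmm+ T-cells, and cycling cells reached 1.52 under an alternative of the processing. The difference between the classes was not tested, since each group has 1 library.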

How the results depend on the processing

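Of 948 ratios recomputed over 11 alternatives, 906 stayed within the counting interval of the reported ratio, 35 moved outside it and 7, all past 1.5-fold as reported, reversed. A further 49 values of ratios that had not passed 1.5-fold crossed 1, among them Btg2 in macrophages (1.22 with each cell weighted equally) and in endothelial cells (0.982 without integration). No paired analysis was possible because each group has 1 library. Where cells were clustered anew, each cluster took the class that held most of its shared cells, so class membership changed. The secretory-poor class had 0 cells at 10% mitochondrial UMIs, at 500 genes, with the lists left out and without integration. The secretory-rich class then held more cells, such as 286 control and 279 IR at 10%. Stromal cells had 0 at 10% and without integration, and striated duct cells 0 at 500 genes. The 13 epithelial pairs higher in IR became 8 at a 2-fold limit. A limit of 50 UMIs left out Phlda3 in secretory-rich (7 and 16 UMIs) and ID cells (3 and 21). It also left out Gdf15 in secretory-rich cells (17 and 27) and Cdkn1a in acinar cells (7 and 13). The 3 lower epithelial pairs became 1 at a 2-fold limit, 1 with the gene lists left out of clustering, 1 without the highest cell and 1 without the 3 highest cells of each library, and 9 where 1 UMI in each library sufficed. In the other classes, the 10 higher pairs became 4 at 50 UMIs, 22 at 1 UMI in each library, 1 at 2-fold and 18 without the 3 highest cells, and the 8 lower pairs became 4 at 50 UMIs, 15 at 1 UMI in each library, 2 at 2-fold and 5 at a 10% mitochondrial limit. At that limit Cdkn1a in ID cells turned to 0.776, as 5 control and 5 IR cells of the stromal class, with 49 and 14 Cdkn1a UMIs, joined the ID class along with added barcodes holding 13 and 0 UMIs. Trp53inp1 in Cxcr6+ T-cells turned to 0.948 at the same limit. With each cell weighted equally, Cdkn1a in macrophages was 1.18, Mdm2 in cycling cells 0.422, Phlda3 in stromal cells 0.900 and Trp53inp1 in dendritic cells 1.07. Gdf15 in ID cells was 1.58 without the highest cell. Beyond the changes whose construction is given here, the cause was not tested. Under TMM all ratios shifted by a log2 of -0.37 in acinar, -0.24 in secretory-rich and -0.07 in ID cells. Counts under 50 UMIs limit the precision: on simulated data 27.5% of unchanged genes of that depth passed 1.5-fold in secretory-rich cells.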

Other observations

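Stress genes outside the p53 lists also differed in the epithelial classes. Of 10 stress targets of ATF4 and CHOP, the transcription factors of the integrated stress response, 9 had enough UMIs in Etv1+ secretory-rich cells, of which 5 were higher in IR and 0 lower (all genes 19% and 6.11%; median ratio 1.72, all genes 1.15). Chac1, which degrades glutathione, had 27 and 124 UMIs there (ratio 7.89, 5.17 to 12.5), 3 and 36 in acinar cells (12.97, 4.10 to 65.8) and 5 and 30 in ID cells (5.36, 2.06 to 17.7). In IR ID cells 17 of the 30 Chac1 UMIs lay in 1 cell of 133546 UMIs, which also held 13 UMIs of the endothelial markers. The part of single cells in the other Chac1 counts was not tested. Trib3 had 4 and 22 UMIs in secretory-rich cells (9.45, 3.21 to 37.7). Sesn2 belongs both to this list and to the p53 targets. Tissue handling can induce immediate early and stress genes, as it can Btg2. In IR ID cells 16 of 33 of these genes were at least 1.5-fold lower and 2 higher (all genes 12.6% and 15.9%), with a median of 0.692. Among the lower were Ier2 (694 and 199 UMIs, 0.256) and Dusp1 (242 and 55, 0.203). The part of the control ID cell with 429 Btg2 UMIs in these counts was not tested. In IR acinar cells 12 of 32 were higher and 1 lower (all genes 29.3% and 3.91%).

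In the Jchain+ cluster of low depth, with 103 control and 247 IR cells and left out above, Trp53inp1 had 3 and 70 UMIs (ratio 13.8, 4.54 to 68.6) and Bax 2 and 38 (11.2, 2.91 to 96.3). The cluster passed 6 of 6 plasma cell and 5 of 5 red blood cell markers. The shares and median over all its genes were not computed, so these ratios have no background beside them.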
